A study of Mus musculus with 8 samples.

Results

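The copines are a family of calcium-dependent phospholipid-binding proteins, and 6 genes of the family, Cpne1, Cpne2, Cpne3, Cpne5, Cpne7 and Cpne8, were followed among the 38918 gene rows of a mouse RNA-sequencing table by their gene symbols. The table holds 9 copine rows in all. The cells were BMiFLT3 (15-3) cells, a pro-B cell line from a murine B-cell precursor acute lymphoblastic leukaemia. They carried a retrovirus for overexpression of Klf2, a Krüppel-like factor that binds DNA through zinc fingers, or, as the control, a retrovirus for overexpression of blue fluorescent protein (BFP). The column names of both groups hold the letters BFP, and whether the Klf2 virus also encodes BFP is not given in the sources used here. The purpose stated for the design was to find genes that Klf2 regulates in B-cell progenitors.

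Each group is 1 library of 1 cell line sequenced in 4 lanes, so n = 1 per group and no difference below has a replicate check or a p-value. Exon reads summed over lanes came to 30835450 in the Klf2 library and 30133978 in the BFP library. Values are CPM, exon reads scaled to the library's total and then with TMM, and each ratio carries a 95% exact interval that covers counting error only. A gene passed the rule used here when its CPM differed at least 2-fold, the interval of the ratio left out 1, and it reached 1 CPM in either library. The Klf2 gene itself had 3364 exon reads in the Klf2 library and 314 in the BFP library, a ratio of 11.1 (interval 9.93 to 12.6). The protocols name 2 library kits without tying either to a group, so the kit and the virus cannot be told apart, and in RNA from a whole culture neither can a change in the share of cells that express a gene and a change in RNA per cell. Of 9 pro-B cell markers, 7 reached 1 CPM, and all 9 summed to 3388 CPM in the Klf2 library and 3048 CPM in the BFP library. Rag1 and Dntt, both defining genes of recombining B-cell progenitors, were near 0, with 1 and 9 exon reads in the Klf2 library and 1 read each in the BFP library.

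Copines carry a pair of C2 domains, which bind membrane phospholipids when calcium is raised, followed by an A domain related to that of von Willebrand factor and the integrins, which binds other proteins. A rise in calcium therefore moves many copines from the cytosol to membranes. Cpne1, Cpne2 and Cpne3 are transcribed in many tissues, whereas Cpne6 is known chiefly from neurons.

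The 250 bases before the annotated start of Cpne2, Cpne5 and Cpne1 are shown because the first and second differed most between the libraries and Cpne1 was close to a ratio of 1. They come from RefSeq on GRCm38.p6 (mm10), which held a promoter for 4 of the 6 genes. The Cpne2 window is chr8:94532778-94533027 on the plus strand and the Cpne5 window is chr17:29237791-29238040 on the minus strand, and both end inside the gene's row of the table. The Cpne1 window is chr2:156111966-156112215 on the minus strand. Letters are 5′ to 3′ on the gene's strand, and capitals mark every CACCC, a core of the sites that Krüppel-like factors bind, and every GGGCGG, the GC box, on either strand, with no base in both.
Cpne2 promoter: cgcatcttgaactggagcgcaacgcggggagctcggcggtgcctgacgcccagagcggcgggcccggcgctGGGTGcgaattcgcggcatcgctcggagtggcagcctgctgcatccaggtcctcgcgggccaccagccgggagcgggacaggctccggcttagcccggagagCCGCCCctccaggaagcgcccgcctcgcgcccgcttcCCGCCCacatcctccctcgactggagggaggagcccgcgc
Cpne5 promoter: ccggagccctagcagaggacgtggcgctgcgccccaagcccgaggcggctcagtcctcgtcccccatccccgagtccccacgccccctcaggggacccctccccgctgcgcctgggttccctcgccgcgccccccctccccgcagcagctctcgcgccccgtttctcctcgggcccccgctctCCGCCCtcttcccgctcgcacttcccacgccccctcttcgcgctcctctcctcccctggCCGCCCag
Cpne1 promoter: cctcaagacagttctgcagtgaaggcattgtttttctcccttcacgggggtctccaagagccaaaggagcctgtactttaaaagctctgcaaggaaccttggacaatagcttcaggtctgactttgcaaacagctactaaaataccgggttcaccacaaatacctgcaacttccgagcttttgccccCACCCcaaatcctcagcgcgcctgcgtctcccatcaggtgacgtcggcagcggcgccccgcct
The Cpne2 window held 1 CACCC, beginning at position -179 from the start, and 2 GC boxes, and 74.4% of its bases were G or C. The Cpne5 window held 0 CACCC and 2 GC boxes at 76.4% G or C. The Cpne1 window held 1 CACCC, at position -63, and 0 GC boxes at 54% G or C. Among 32851 promoters of the same length, 52.0% held a CACCC and 32.7% a GC box, and the median G and C content was 52.4%. These matches describe letters in a window and say nothing of binding.

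Of the 6 copines, Cpne2 and Cpne5 passed the rule and both were higher in the Klf2 library, Cpne1 and Cpne3 lay near a ratio of 1, and Cpne7 and Cpne8 had no exon reads. The members were chosen by the exon reads of these same 2 libraries, Cpne2 foremost, so the 2 that passed are a description and nothing is read from their count. Over all rows, 10850 genes reached the floor and were measured, of which 881 (8.12%) passed in either direction, 266 (2.45%) as higher and 615 (5.67%) as lower in the Klf2 library. The median log2 difference of all measured genes was -0.01. Of the 6 members, 4 were measured and 2 were under the floor of 1 CPM.

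Cpne2, a broadly transcribed copine, occupies chromosome 8 from 94532990 to 94570529 (mm10) and has 3198 exon bases in the table. Its exon reads in the 4 lanes, L001 to L004, were 1012, 1007, 1078 and 1097 in the Klf2 library, against 217, 230, 211 and 246 in the BFP library. The authors' RPKM, in which exon reads are divided by exon length and by a lane's gene reads, were 34.8, 34.7, 37.2 and 37.6 in the Klf2 lanes, against 7.66, 8.10, 7.45 and 8.60 in the BFP lanes. Every Klf2 lane was above every BFP lane by a wide margin, but lanes of a group share 1 library, so this is no replication. The share of all genes whose lanes separate in this way is not given here. Summed, Cpne2 had 4194 exon reads (140 CPM) in the Klf2 library and 904 (29.1 CPM) in the BFP library, a ratio of 4.83 (interval 4.49 to 5.19) and a difference of 2.23 on the log2(CPM + 1) scale. All of these reads were uniquely placed. In the authors' deposited table the fold of Cpne2 is 4.54. A higher ratio was found in 22 of the measured genes. Among the 2490 genes at 100 CPM or more in the Klf2 library, Klf2 and Cpne2 had the 2 highest ratios. Both were below 100 CPM in the BFP library, Klf2 at 10.1 CPM, and entered this set through the Klf2 library alone. The rank is therefore a description and carries no support of its own.

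Cpne5, a copine of the same domain plan, occupies chromosome 17 from 29156550 to 29237797 on the minus strand, with 11998 exon bases. Its lanes held 102, 91, 82 and 84 exon reads in the Klf2 library, against 29, 25, 29 and 25 in the BFP library. Per exon length this was 0.935, 0.837, 0.755 and 0.768 RPKM in the Klf2 lanes, against 0.273, 0.235, 0.273 and 0.233 RPKM in the BFP lanes. The lanes of the 2 libraries did not overlap, which again restates 1 difference between libraries. The level per length was far below that of Cpne2. The sums were 359 reads (12.0 CPM) in the Klf2 library and 108 (3.47 CPM) in the BFP library, a ratio of 3.46 (interval 2.78 to 4.33) and a log2 difference of 1.54. All were uniquely placed. In the authors' deposited table the fold of Cpne5 is 3.25. In GENCODE, 146 of the 13571 exon bases of Cpne5 (1.08%) are shared with AC162182.2 on the plus strand.

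Cpne3, whose human protein was described with an associated kinase activity, is on chromosome 4 from 19519254 to 19570108 on the minus strand, with 7131 exon bases. It had 145, 137, 150 and 118 exon reads in the Klf2 lanes, against 121, 137, 151 and 128 in the BFP lanes. The lanes overlapped fully, as they did per length at 1.815 to 2.32 RPKM in the Klf2 lanes and 1.92 to 2.39 RPKM in the BFP lanes. Cpne3 had 550 reads (18.4 CPM) in the Klf2 library and 537 (17.3 CPM) in the BFP library, all uniquely placed. The ratio was 1.07 with an interval of 0.945 to 1.203, so a difference beyond counting error was not detectable at this depth.

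Cpne1, whose human protein has been reported to act on the NF-kB pathway, is on chromosome 2 from 156071842 to 156111965 on the minus strand, with 4507 exon bases. Its lanes held 669, 686, 644 and 755 exon reads in the Klf2 library, against 821, 757, 618 and 682 in the BFP library. These were 15.8 to 18.4 RPKM in the Klf2 lanes and 15.5 to 20.6 RPKM in the BFP lanes, and the lanes overlapped. The sums of 2754 reads (92.2 CPM) in the Klf2 library and 2878 (92.6 CPM) in the BFP library gave a ratio of 0.996 (interval 0.945 to 1.05). The side of 1 on which Cpne1 fell changed with the processing, from 0.935 with total-count scaling to 1.18 on gene reads. Of these reads only 8 were uniquely placed in the Klf2 library (0.290%) and 8 in the BFP library (0.278%).

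The low share of unique reads at Cpne1 goes with overlapping rows. The row of Rbm12, an RNA-binding protein gene, and the row RP23-220D12.12 lie over Cpne1, and in GENCODE 3789 of the 4507 exon bases (84.1%) are shared with other genes. The lanes of Cpne1 also differed more than counting error gives: chi-square per degree of freedom was 3.01 in the Klf2 library and 11.2 in the BFP library, against 1.91 in the Klf2 library and 0.926 in the BFP library for Cpne2. For the 3 overlapping rows summed it was 1.79 in the Klf2 library and 2.15 in the BFP library. That sum had 4953 reads in the Klf2 library and 5049 in the BFP library, a ratio of 1.02 (interval 0.981 to 1.06), with 0 unique reads in Rbm12 and in RP23-220D12.12. How reads were divided among these rows is not given in the sources used here, and the value of Cpne1 alone is uncertain to that extent.

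**Figure D1:**
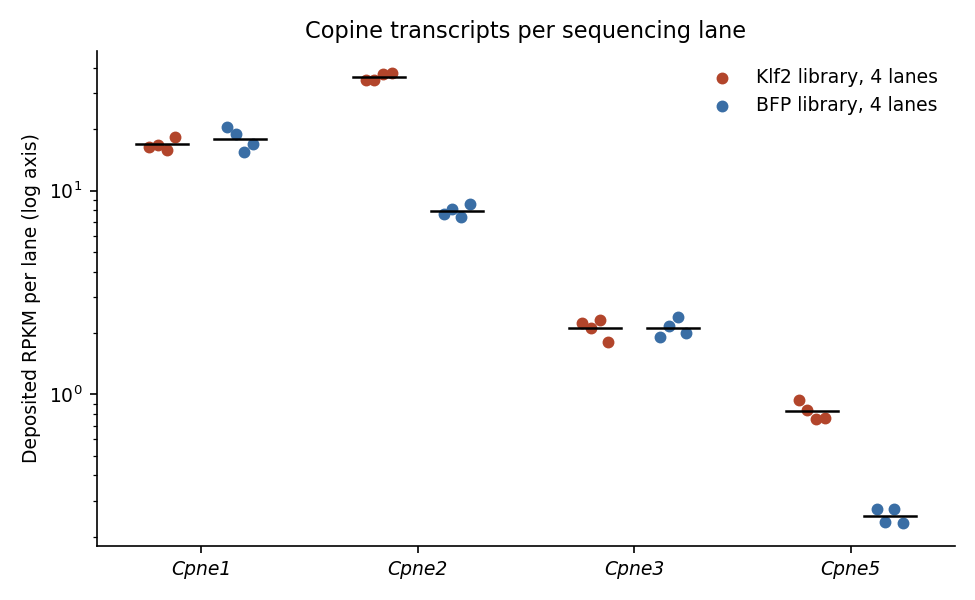
The authors' RPKM of Cpne2, Cpne5, Cpne3 and Cpne1 in the 4 lanes of the Klf2 library and the 4 lanes of the BFP library. Each point is a lane of 1 library, and the groups stand apart for Cpne2 (34.7 to 37.6 against 7.45 to 8.60 RPKM) and Cpne5, and overlap for Cpne3 and Cpne1.

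Cpne8, on chromosome 15 from 90487482 to 90679432, had 0 exon reads in either library, which allows up to 0.0973 CPM in the Klf2 library and 0.0996 CPM in the BFP library. Its gene body outside exons held 21 reads in the Klf2 library and 14 in the BFP library. Cpne7, on chromosome 8 from 123117374 to 123135182, had 0 reads of any kind in both. That 0 cannot be read as absence of the transcript, because Cpne7 lies inside the row Gm20388, which spans 4.43 Mb, contains 180 other rows and holds 259463 gene reads in the Klf2 library and 275435 in the BFP library. Rpl13, a ribosomal protein gene inside the same interval, was listed with 221 exon reads in the Klf2 library and 125 in the BFP library, while 86 other ribosomal protein rows had a median of 15998.5 reads in the Klf2 library and 18569 in the BFP library.

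Of the copine rows outside the 6, Cpne9 had 8 exon reads in the Klf2 library and 6 in the BFP library, and Cpne6, the neuronal copine, 0 in the Klf2 library and 1 in the BFP library. Outside its exons, Cpne9 had 14 reads in the Klf2 library and 2 in the BFP library. Cpne4 had 0 exon reads in both libraries, with 373 gene reads outside exons in the Klf2 library and 327 in the BFP library. None of the 3 reached the floor on exon reads.

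The family total of the 6 genes was 7857 exon reads (263 CPM) in the Klf2 library and 4427 (142 CPM) in the BFP library, a ratio of 1.85 (interval 1.78 to 1.92). Cpne2 made up 111 of the 121 CPM by which the total was higher, or 92.3%. Its share of the family's exon reads was 53.4% (exact interval 52.3 to 54.5) in the Klf2 library and 20.4% (19.2 to 21.6) in the BFP library. In single lanes the share was 52.5, 52.4, 55.2 and 53.4% in the Klf2 library, against 18.3, 20.02, 20.9 and 22.8% in the BFP library. The share of Cpne2 was higher in each Klf2 lane than in any BFP lane, but the lanes are repeat readings of 1 library per group and not replicates. Cpne5 held 4.57% in the Klf2 library and 2.44% in the BFP library, but without Cpne1 the intervals overlapped almost fully, at 7.04% in the Klf2 library and 6.97% in the BFP library. Cpne1 held 35.1% in the Klf2 library and 65.0% in the BFP library, and Cpne3 held 7.0% in the Klf2 library and 12.13% in the BFP library, while the CPM of both genes lay near a ratio of 1.

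Because Cpne1 supplied most of the BFP library's family reads and almost none of them were unique, the totals depend on how it is counted. On gene reads the family had 10660 in the Klf2 library and 6032 in the BFP library, a ratio of 1.87 when scaled by gene reads. The share of Cpne2 was 46.3% in the Klf2 library and 18.5% in the BFP library. Without Cpne1 the family total was 5103 exon reads in the Klf2 library and 1549 in the BFP library, a ratio of 3.43 (interval 3.24 to 3.63). The share of Cpne2 was then 82.2% in the Klf2 library and 58.4% in the BFP library. Summed per exon length, the family was at 55.9 RPKM in the Klf2 library and 28.3 RPKM in the BFP library, with Cpne2 at 64.6% of the Klf2 sum and 28.1% of the BFP sum. Every one of these countings put the Cpne2 share higher in the Klf2 library. They draw on the same 2 libraries, and the family was chosen with Cpne2 foremost, so this is a description and no added support.

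**Figure D2:**
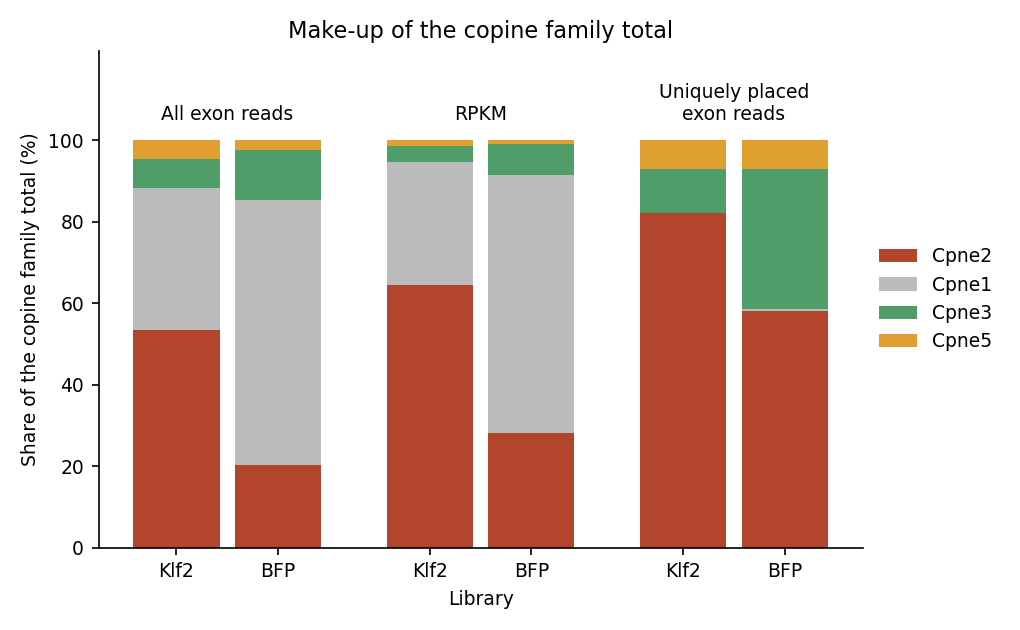
Family composition of the copines in the Klf2 and BFP libraries, as each gene's share of all exon reads, of RPKM and of uniquely placed exon reads. Of all exon reads, Cpne2 held 53.4% in the Klf2 library and 20.4% in the BFP library, and Cpne1 held 35.1% and 65.0%.

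The classes of reads in the table separate spliced from unspliced signal. Reads across exon junctions come from spliced RNA, and reads of a gene outside its exons come largely from introns. For Cpne2, junction reads were 1557 in the Klf2 library and 354 in the BFP library, a ratio of 4.58 (interval 4.08 to 5.15). Reads outside exons were 741 in the Klf2 library and 209 in the BFP library, a ratio of 3.69 (3.16 to 4.32). Both classes were higher in the Klf2 library, and reads crossing an intron-exon border, 39 in the Klf2 library and 11 in the BFP library, were too. The share of Cpne2 gene reads outside exons was 15.0% (14.0 to 16.0) in the Klf2 library and 18.8% (16.5 to 21.2) in the BFP library, beside 15.1% in the Klf2 library and 15.2% in the BFP library over all rows.

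Cpne5 had fewer reads in each class. Its junction reads were 65 in the Klf2 library and 12 in the BFP library, a ratio of 5.64 with a wide interval of 3.02 to 11.5. Reads outside exons were 83 in the Klf2 library and 38 in the BFP library, a ratio of 2.27 (1.53 to 3.43). The share outside exons was 18.8% (15.2 to 22.7) in the Klf2 library and 26.0% (19.1 to 33.9) in the BFP library, and these intervals overlap. Cpne3 had 78 junction reads in the Klf2 library and 54 in the BFP library, a ratio of 1.503 (1.05 to 2.17), although its exon reads were near a ratio of 1. For Cpne1, reads outside exons were 1918 in the Klf2 library and 1299 in the BFP library, a ratio of 1.54 (1.43 to 1.65), and none of them were uniquely placed, so they carry the same uncertainty as its exon reads.

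**Figure D3:**
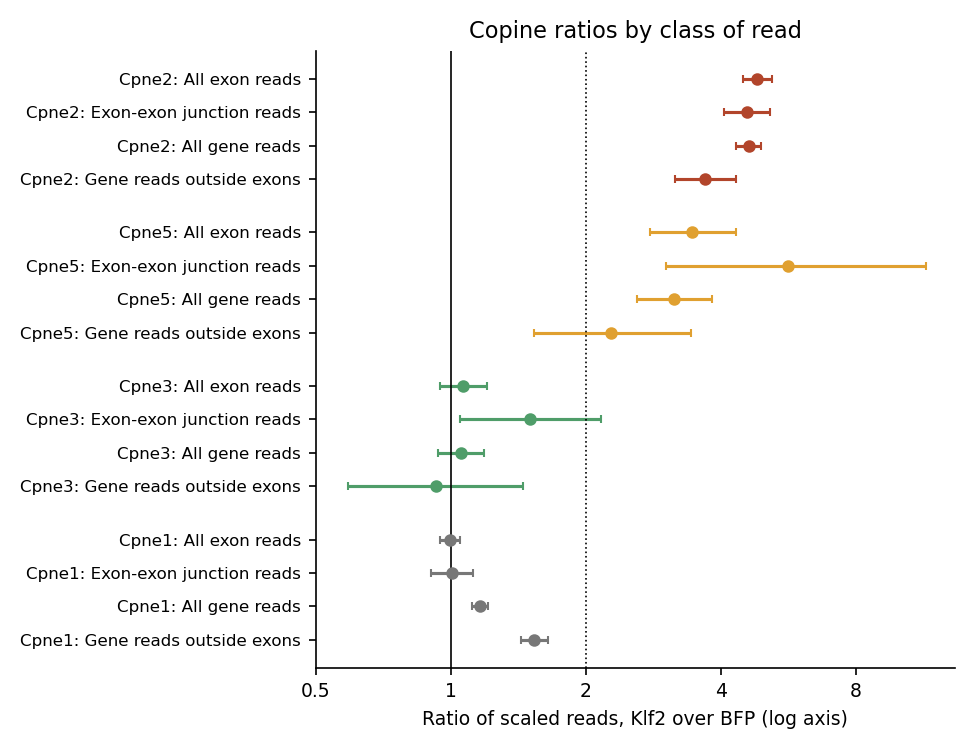
Ratio of the Klf2 library to the BFP library for each class of reads of the 4 measured copines, on a log axis, with 95% exact intervals of counting error. In the 4 classes plotted, Cpne2 lay between 3.69 and 4.83, Cpne5 between 2.27 and 5.64, and most classes of Cpne3 and Cpne1 near 1, apart from Cpne3 junction reads at 1.503 and Cpne1 reads outside exons at 1.54.

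**Figure D4:**
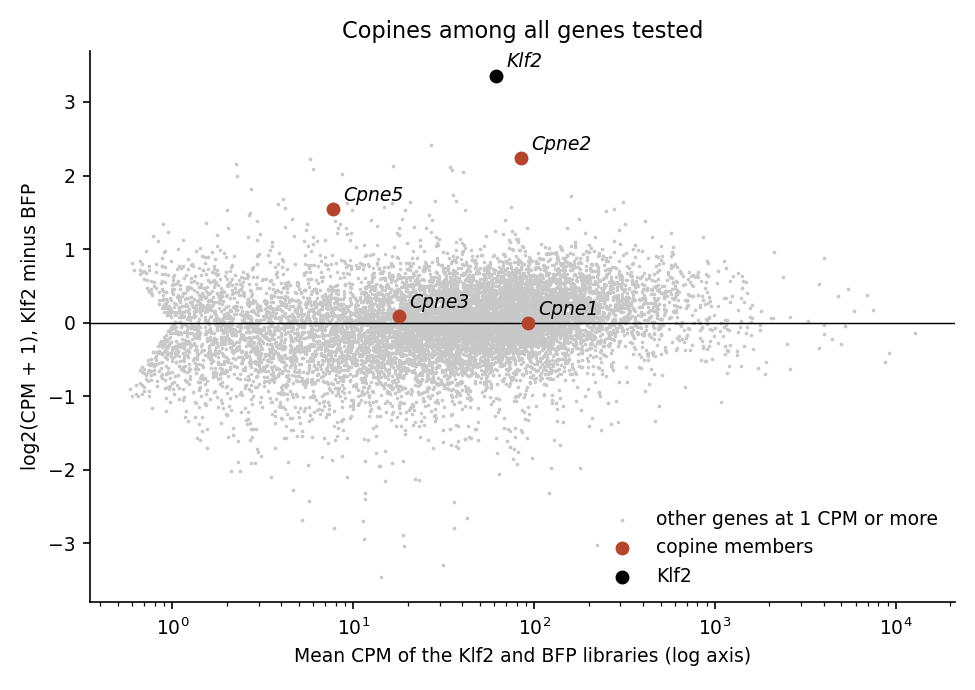
Log2 difference between the Klf2 and BFP libraries against level for every gene measured, with the measured copines named. Cpne2 (2.23) and Cpne5 (1.54) lie above the bulk of genes, and Cpne3 (0.09) and Cpne1 (-0.01) lie within it.

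The genes next to each copine were examined to see how far the difference extended along the chromosome. On either side of Cpne2, Nlrc5, an NLR-family regulator of MHC class I genes that lies 5.72 kb away, had 209 CPM in the Klf2 library and 255 CPM in the BFP library, a ratio of 0.823. Fam192a, 4.41 kb to the other side, had 77.9 CPM in the Klf2 library and 73.6 CPM in the BFP library, a ratio of 1.06. Of 17 other measured genes within 500 kb of Cpne2, 0 passed the rule, and their ratios ran from 0.531 for Mt2, a metallothionein, to 1.70 for Nup93, a nuclear pore protein, with a median of 0.982. Cpne2 was thus the single measured gene of that window past the rule.

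Around Cpne5 the neighbours were higher as well. Rab44, a large Rab GTPase gene 7.57 kb away, had 306 exon reads (10.2 CPM) in the Klf2 library and 154 (4.95 CPM) in the BFP library, a ratio of 2.07 (1.70 to 2.53). That call is at the threshold: the ratio of Rab44 was 1.94 with total-count scaling, 1.85 on gene reads and 1.85 without lane 1. Ppil1, a cyclophilin-type prolyl isomerase of the spliceosome 13.0 kb to the other side, had 173 CPM in the Klf2 library and 94.9 CPM in the BFP library, a ratio of 1.83 (1.74 to 1.91) that did not reach the rule. Of 20 other measured genes within 500 kb, 3 passed the rule, Rab44 as higher and 2 as lower, Pi16 and the long non-coding RNA gene Trp53cor1, whose ratio of 0.4997 lies at the threshold, with ratios from 0.217 (Pi16) to 2.07 (Rab44) and a median of 1.07. Beside Cpne1, the ratio was 0.949 for Spag4 and 1.08 for Nfs1, and next to Cpne3 it was 0.792 for Rmdn1.

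**Figure D5:**
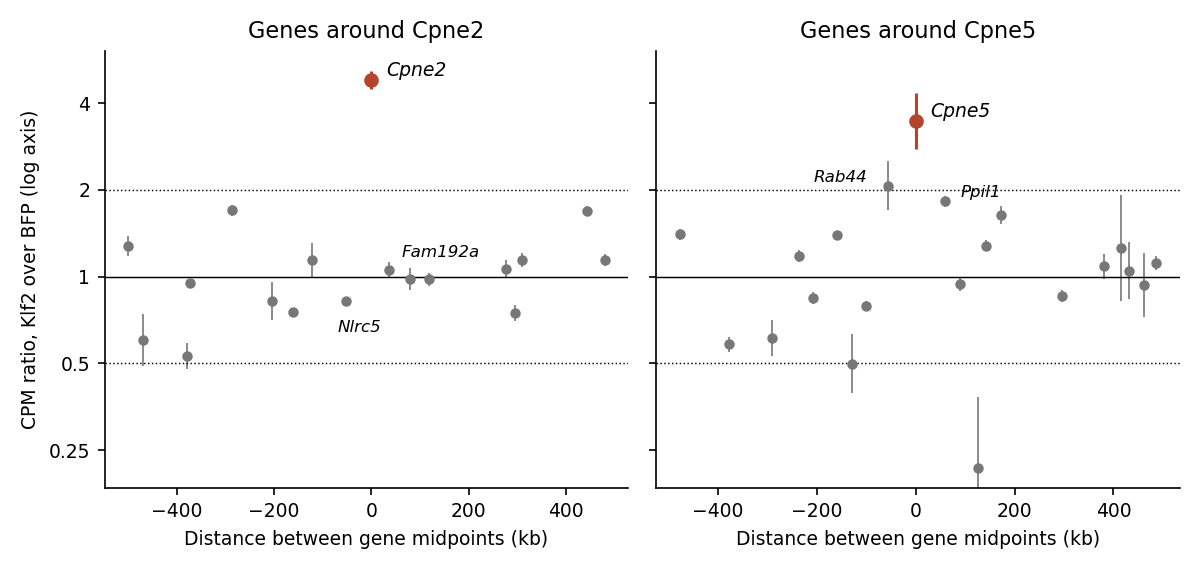
Ratio of the Klf2 library to the BFP library, on a log axis, for measured genes within 500 kb of Cpne2 and of Cpne5, against distance from the copine in kb. Cpne2 (4.83) stands above its 17 neighbours, the highest at 1.70, while Rab44 (2.07) and Ppil1 (1.83) lie beside Cpne5 (3.46).

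The genes most like Cpne2 were those with the smallest distance from it in log2(CPM + 1) over the 2 libraries, which compares read numbers and not levels per length. Genes with provisional symbols and immunoglobulin segments were left out of this ranking. Fkbp5, a co-chaperone of steroid receptors, was nearest at a distance of 0.47, with 112 CPM in the Klf2 library and 37.05 CPM in the BFP library. Rgs10, a regulator of G-protein signalling, followed at 0.60 with 99.9 CPM in the Klf2 library and 37.3 CPM in the BFP library. Car2, a carbonic anhydrase, was at 0.71 with 107 CPM in the Klf2 library and 44.5 CPM in the BFP library. All 3 had lower ratios than Cpne2, at 3.03, 2.68 and 2.41, which are formed from the same CPM values that ranked the genes. The comparison is therefore a description only.

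Genes with domains or partners in common with the copines were followed in 7 lists. Over the 7 lists 61 genes were measured, of which 2 passed the rule as higher in the Klf2 library (3.28%) and 6 as lower (9.84%), beside 2.45% and 5.67% of all genes. None of these lists holds a copine. The synaptotagmin-type list included extended synaptotagmins, synaptotagmin-like and DOC2 genes. Of its 29 genes, 5 were measured and 0 passed, with a median log2 difference of -0.26. The list of ferlins, MCTPs and Munc13 proteins also held Rims1, Rims2 and Tollip. Of its 16 genes, 6 were measured with a median of -0.39 and 2 passed as lower. These were Unc13a, at 9.64 CPM in the Klf2 library and 23.7 CPM in the BFP library, and Myof, with 13 reads in the Klf2 library and 39 in the BFP library. Of 9 NEDD4-type ubiquitin ligases, which reach membranes through a C2 domain, 7 were measured and 0 passed, with a median of -0.15.

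Among C2-domain kinases, phospholipases and Ras GTPase-activating proteins, 22 of 32 genes were measured with a median log2 difference of -0.04, 1 higher and 2 lower. Prkcb, the protein kinase C isoform of B-cell receptor signalling, had 7.86 CPM in the Klf2 library and 3.31 CPM in the BFP library, a ratio of 2.37. Plcg2, the phospholipase C of B-cell receptor signalling, had 660 CPM in the Klf2 library and 377 CPM in the BFP library, a ratio of 1.75 that did not reach the rule.

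Of 12 annexins, the other large family of calcium-dependent phospholipid binders, 7 were measured with a median log2 difference of 0.11. Anxa5 alone passed, at 17.8 CPM in the Klf2 library and 44.5 CPM in the BFP library, a ratio of 0.401. Of 18 genes with an A domain like that of the copines, 7 were measured with a median of -0.29. Itgae, the integrin alpha E chain, had 2.51 CPM in the Klf2 library and 0.804 CPM in the BFP library, a ratio of 3.12 that was 2.06 on gene reads, and it did not reach the stricter floor of 10 CPM. Itgad, the integrin alpha D chain, had 7.06 CPM in the Klf2 library and 14.2 CPM in the BFP library, a ratio of 0.499 that moved to 0.520 without lane 2, 0.516 without lane 3 and 0.534 on gene reads, none of which passed.

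Of 8 genes whose human products have been reported to bind copines, 7 were measured, 0 passed and the median log2 difference was 0.03. Cops5, a subunit of the COP9 signalosome, had 44.3 CPM in the Klf2 library and 27.6 CPM in the BFP library. Ppp5c, a serine/threonine phosphatase, had 222 CPM in the Klf2 library and 148 CPM in the BFP library. Rela, an NF-kB subunit, had 88.1 CPM in the Klf2 library and 127 CPM in the BFP library. Gnb2l1 had 1550 CPM in the Klf2 library and 2253 CPM in the BFP library. Among the 7 measured genes, the interval of the ratio lay above 1 for 3 and below 1 for 3.

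Markers of other cells were few, and their part in the copine values was not tested. Of 7 myeloid markers 2 were measured, and all 7 summed to 5.19 CPM in the Klf2 library and 8.27 CPM in the BFP library. Of 5 T-cell markers Lck alone was measured, at 27.1 CPM in the Klf2 library and 12.3 CPM in the BFP library, while Cd3e, Cd4 and Cd8a had 0 reads. Of 3 erythroid and 4 stromal markers 0 were measured.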

How the data were processed

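Poly(A) RNA was sequenced on an Illumina HiSeq system, per the labels' protocols. The submitters' processing notes name CASAVA 1.8.2 and mm10. The aligner, counter, annotation and use of strand are not stated there or in the labels, and reads of overlapping or antisense genes cannot be told apart. In the table the authors deposited, 38918 rows hold, per the file headers, counts of exon, gene, junction and intron-exon reads for each lane, uniquely placed reads among them, RPKM, median coverage as a signal that was not used for a result, and a signed fold score. Deposited RPKM were recomputed from the deposited counts with a largest difference of 0.0258.

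The 4 samples of a group are lanes of the same library: chi-square per degree of freedom over lanes was 1.27 in the Klf2 library and 1.29 in the BFP library on exon reads, and 1.03 in each on unique reads. Lanes held 7682298 to 7741626 exon reads in the Klf2 library and 7506567 to 7588695 in the BFP library. They were summed and counted as 1 sample. Exon read counts were scaled with TMM (edgeR 4.0.16, R 4.3.3; factors 0.969 for Klf2 and 1.03 for BFP), and log2 differences used CPM + 1. Ratios have 95% Clopper-Pearson intervals conditional on summed reads (SciPy 1.17.1), tested on simulated data. Reads carry no molecular identifiers, so intervals and the limit of a 0 (3 reads) cover counting error only. Reads outside exons are gene reads minus exon reads. Alternatives were total-count and DESeq2 1.42.0 size-factor scaling, unique reads, gene reads, no floor, a floor of 10 CPM, a pseudocount of 5 CPM, and each lane left out. The text names every copine row, genes nearest to the 6 members, the 3 genes most like Cpne2 and up to 4 members of a list, those past the rule first. Of the nearest genes, values are not reported here for Ripk2 beside Cpne3, Chmp1a beside Cpne7, and Alg10b and Lrrk2 beside Cpne8. The extremes of each 500 kb window are also named, chosen after their values were seen. Members and lists were chosen with earlier results of these data known. Values of 2 list genes that passed as lower are not reported here.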

Additional observations from a re-analysis of the deposited data

Results flagged for a closer look

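Cpne4 was the single copine result flagged in data outside the main measurement. It had 373 gene reads in the Klf2 library and 327 in the BFP library, all outside its exons, and 0 exon reads in both. Of those reads 353 in the Klf2 library and 297 in the BFP library were uniquely placed, and the ratio was 1.21 (95% exact interval 1.04 to 1.41) when scaled by total gene reads. The source of these reads was not tested.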

How the results depend on the processing

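No paired analysis was possible because the shared replicate numbers are lanes of 1 library per group and the results come from no test. Leaving out each lane moved the ratio between 4.68 and 4.91 for Cpne2, 3.35 and 3.65 for Cpne5, and 1.797 and 1.91 for the family total. Cpne2 and Cpne5 passed the rule under all 10 alternatives run. Both were above 10 CPM in the Klf2 library and all their exon reads were unique, so the floors and unique reads could hardly alter this. The left-out lanes are lanes of the same libraries. The family total ratio was 1.73 with total-count scaling and 3.43 both on unique reads and without Cpne1, the last chosen after seeing the data. The Cpne2 share was 82.1% in the Klf2 library and 58.1% in the BFP library on unique reads, 46.3% and 18.5% on gene reads, 64.6% and 28.1% on RPKM, and 82.2% and 58.4% without Cpne1. Genes passing as higher numbered 432 with no floor and 121 with a floor of 10 CPM, and 277 passed as lower with the floor of 10 CPM. Of the lists, synaptotagmin-type genes had 2 past the rule on gene reads and 2 with no floor, C2 kinases 0, ferlins 1 and A-domain genes 1 with the floor of 10 CPM, A-domain genes 1 to 2 over left-out lanes, and the NEDD4 median was -0.24 with total-count scaling. The alternatives on read class, floor and Cpne1 change which reads or genes enter the count, and those on scaling and RPKM change only the divisor; other causes were not tested. Depth limits Cpne5 junction reads, Cpne6, Cpne8 and Cpne9 to wide intervals or upper limits.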
